A study of Arabidopsis thaliana with 12 samples.

Results

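Root tips of wild-type (WT) Arabidopsis thaliana seedlings kept on NaCl were compared with root tips of WT seedlings kept on plain Murashige and Skoog medium (MS), family by family, with gene families taken from the descriptions in the authors' table. The table lists 33557 genes. The authors had tested 19798 of them, and the 19082 tested genes that reached 1 FPKM in at least 1 of the groups are described here. FPKM is a level of transcript scaled for gene length and library size, so levels of different genes can be compared. Just inside that limit lay AT5G64450, with 0.417 FPKM on NaCl and 1.00 FPKM on MS, and just outside it lay ENDO2, with 1.000 FPKM on NaCl and 0.150 FPKM on MS.

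The study holds 12 samples in 4 groups of 3: WT on NaCl, WT on MS, and a line called 6-6, which the labels do not explain, on each medium. All seedlings were raised at 22 °C under a 16 h light and 8 h dark cycle, were 8 days old when they were moved for 24 h to 1/2 MS with NaCl or without it, and gave about 1 cm of root tip for RNA. The NaCl concentration and the WT accession are not given in the sources used here, and nothing in the labels tells whether a group's 3 samples were separate cultures, so the authors' p-values may measure technical spread only. The deposited table gives 1 FPKM value per group with its samples combined, so the values carry no replicate error, and library depth is unknown. A gene is said to have risen or fallen where the q-value in the authors' deposited table was below 0.05, and other genes are described as not called.

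Salt in the medium draws water from roots and lets sodium enter their cells. Plant roots are known to answer with the hormone abscisic acid (ABA), protective hydrophilic proteins, altered ion and water transport, and a change in the rate and pattern of cell wall growth. In the root tip these responses take place beside cell division, elongation and the building of the endodermal and outer barriers.

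The marker genes of root tissues were present in both groups. The 5 genes listed for whole roots summed to 6343 FPKM on NaCl and 8384 FPKM on MS, and the 7 root hair and epidermis genes to 627 FPKM on NaCl and 468 FPKM on MS. The 4 root cap genes and the 6 stem cell niche genes were all above 1 FPKM in at least 1 group. The 5 genes of shoot meristem and flower and the 3 of pollen and seed that were found were all under 1 FPKM in both groups, with CLV3, AG, AT2S1 and CRA1 listed at 0. Leaf genes were low but above 0: 9 of them summed to 189 FPKM on NaCl and 58.4 FPKM on MS, most of it from LHCB1.3. Each sample is a mix of tissues, so fewer cells of a type and less RNA per cell cannot be told apart in any value below.

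Of the 19082 genes, 4225 were called (22.1%): 2171 rose (11.4%) and 2054 fell (10.8%). Most changes were small. The median log2 fold change was 0.60 among genes that rose and -0.56 among genes that fell, and 829 rises and 858 falls were under 0.5 on the log2 scale. Changes of at least 1 on that scale were more often rises (567) than falls (342), and changes of at least 2 numbered 171 rises and 53 falls. The median over all genes described was 0.01, so the scale of the table itself was nearly level. Reading the authors' test statistic as a normal deviate in place of their p-value left 922 rises (4.83%) and 735 falls (3.85%). The share called was highest among the strongest genes: among genes with a mean under 5 FPKM 11.9% rose and 8.65% fell, and among the 304 genes with a mean of at least 500 FPKM 22.0% rose and 16.8% fell.

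The largest gain in transcript was that of GSR2, a cytosolic glutamine synthetase (AT1G66200, chromosome 1, 24655210 to 24657683, TAIR10), with 3020 FPKM on NaCl and 1674 FPKM on MS. KIN1, a cold- and ABA-induced gene (AT5G15960, chromosome 5, 5209898 to 5210727), stood at 927 FPKM on NaCl and 85.5 FPKM on MS, a log2 fold change of 3.44. Its near-identical neighbour KIN2 was not called, with 1332 FPKM on NaCl and 1147 FPKM on MS, and reads could have been split between the copies. The rises of KIN1 and of SAG21, a small stress-induced mitochondrial LEA-type protein, took genes of moderate level into the range of the strongest genes of the tip. SAG21 (AT4G02380, chromosome 4, 1046204 to 1046997) stood at 990 FPKM on NaCl and 279 FPKM on MS. Others among the 15 largest gains were already strong on MS: the metallothionein gene MT1C had 2721 FPKM on NaCl and 1940 FPKM on MS, and the glycolytic gene GAPC2 had 1648 FPKM on NaCl and 934 FPKM on MS. AGP30, a root arabinogalactan protein, gained most in ratio after KIN1 within these 15, with 682 FPKM on NaCl and 176 FPKM on MS.

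The largest loss was that of PYK10, the beta-glucosidase of root ER bodies (AT3G09260, chromosome 3, 2839000 to 2843781, a locus shared with another gene), with 3842 FPKM on NaCl and 5364 FPKM on MS. Several genes known from ER bodies or PYK10 complexes are given here for their values, and no list of such genes was tested. PYK10 and NAI2 are on the whole-root marker list, and others were named for large falls, so the choice leans to genes that fell. The lectin family that includes partners of PYK10 rose in 6 of 25 and fell in 6. PYK10-binding protein 1 (AT3G16420) had 914 FPKM on NaCl and 1404 FPKM on MS, the ER body gene NAI2 had 354 FPKM on NaCl and 507 FPKM on MS, and NAI1, the bHLH factor known to control ER body genes, had 45.9 FPKM on NaCl and 91.3 FPKM on MS. GLL22, a lipase-like partner of PYK10 complexes, had 720 FPKM on NaCl and 1159 FPKM on MS. AGP22, another arabinogalactan protein (AT5G53250, chromosome 5, 21603620 to 21604231), lost more in ratio than PYK10, with 699 FPKM on NaCl and 1849 FPKM on MS. The chalcone synthase gene TT4, the entry enzyme of flavonoid synthesis, had 911 FPKM on NaCl and 1501 FPKM on MS (a locus shared with another gene). MYB12, a factor known to switch on flavonol synthesis, had 14.2 FPKM on NaCl and 33.9 FPKM on MS. RCI2B, a small membrane protein gene known for induction by cold and salt, fell here, with 1279 FPKM on NaCl and 1958 FPKM on MS.

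**Figure D1:**
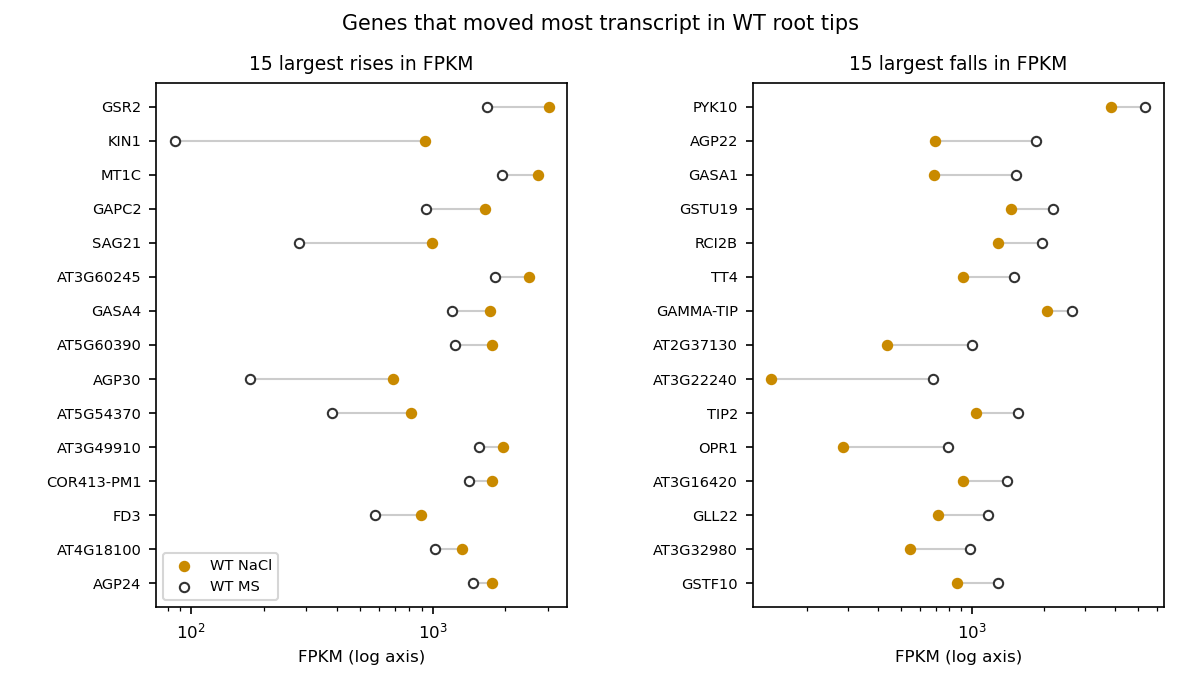
Group FPKM on a log axis of the 15 genes with the largest rise and the 15 with the largest fall in FPKM in WT root tips (filled points WT NaCl, open points WT MS). KIN1, SAG21 and AGP30 moved far on the log axis, with 927, 990 and 682 FPKM on NaCl, while PYK10 lost the most FPKM from the highest level, with 3842 FPKM on NaCl.

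The 90 families cover 3895 of the genes described (20.4%). In 19 families the median log2 fold change was above 0.2, and in 9 it was below -0.2. Among families with at least 5 members described, 50.0% or more rose in alpha-expansins, beta-glucosidases, LEA proteins, nuclear photosystem proteins, sulfate transporters and gibberellin genes, and 50.0% or more fell in MLP-like proteins, ABA receptors, aquaporins and organic cation transporters. Pentatricopeptide proteins (5 of 199), proteasome subunits (0 of 34) and tubulins (0 of 15) held few or no called genes. Reading the statistic as a normal deviate lowered the counts of many families by more than 1.5 times. For example, 6 of 17 beta-glucosidases rose, 18 of 50 nuclear photosystem genes rose, 2 of 8 ABA receptors fell and 1 of 16 jasmonate genes fell.

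**Figure D2:**
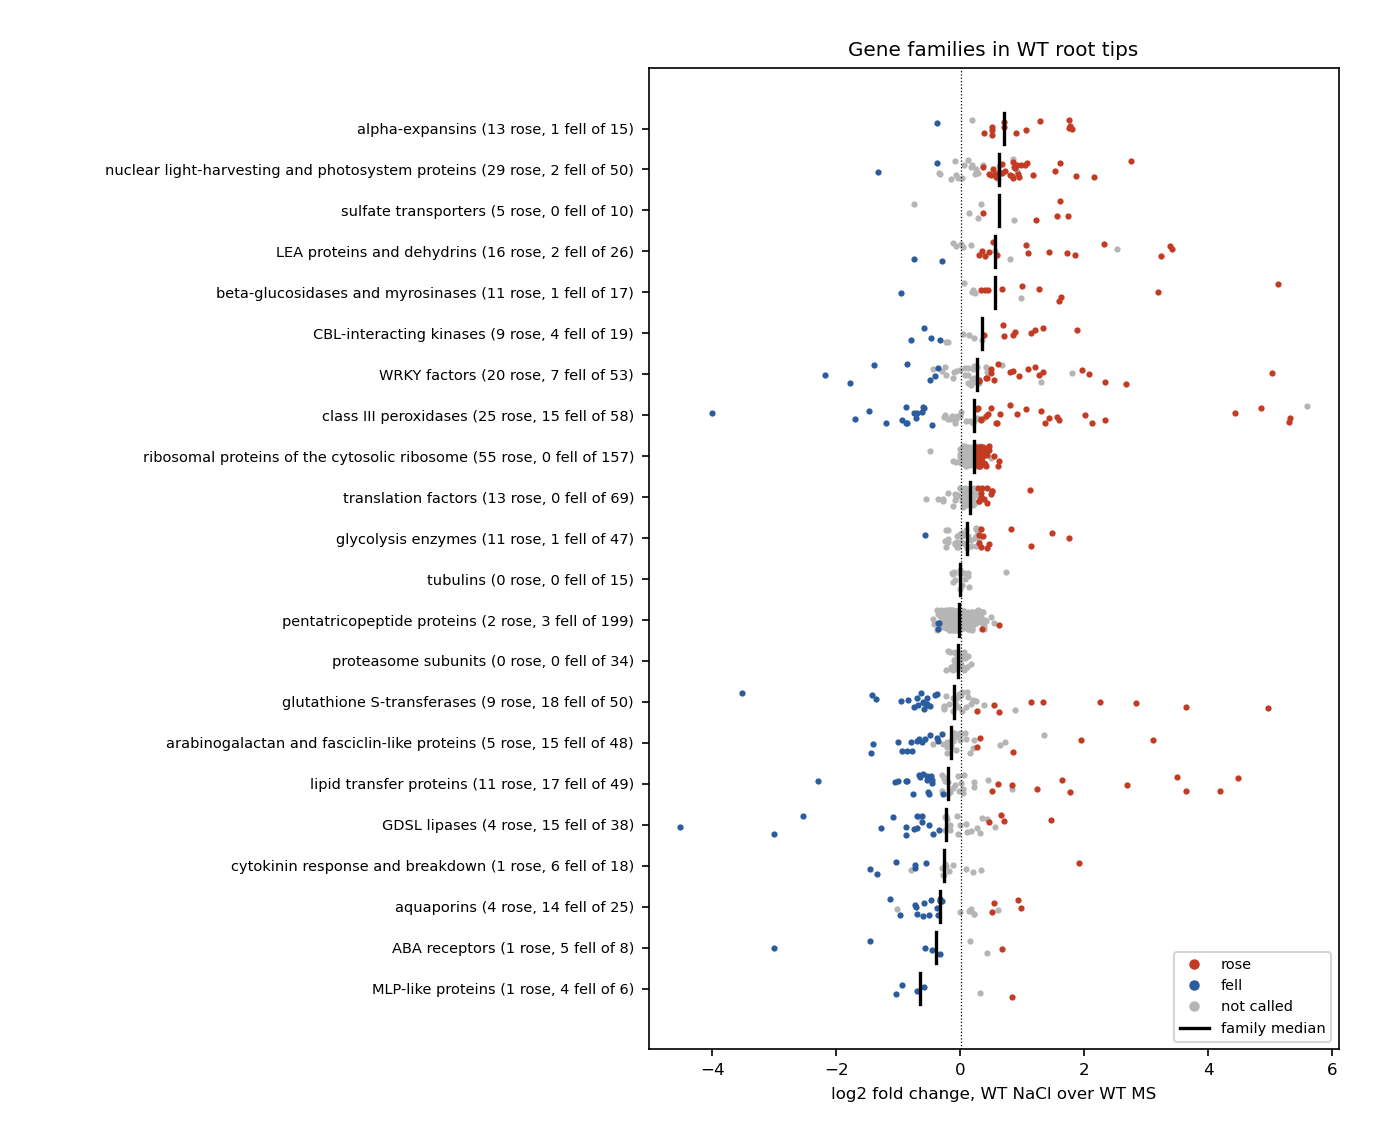
Log2 fold change of WT NaCl over WT MS for each gene (points) of 22 families, with the family median as a bar and the median of all genes described as a dotted line. Genes at 0 in a group are not drawn. Alpha-expansins stand to the right (median 0.70) and aquaporins to the left (median -0.33), while proteasome subunits hold no called gene.

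Many late embryogenesis abundant (LEA) proteins and dehydrins are hydrophilic and protect membranes and enzymes when cells lose water. Of 26 genes with such a description 16 rose and 2 fell, with a median log2 fold change of 0.57, against 0.01 over all genes. Membership rests on the description alone, and whether each member has that role was not tested. Their levels spanned more than the change did. AT5G54370, the strongest riser, had 815 FPKM on NaCl and 383 FPKM on MS, and AT3G19430 had 200 FPKM on NaCl and 60.2 FPKM on MS. The steepest ratios came from genes near the limit of detection on MS, such as LEA3 with 4.22 FPKM on NaCl and 0.402 FPKM on MS. AT5G66400, the dehydrin RAB18 known as a classical ABA marker, had 2.08 FPKM on NaCl and 0.415 FPKM on MS. The most abundant dehydrins were not called: AT1G54410 had 855 FPKM on NaCl and 923 FPKM on MS, and ERD14 had 589 FPKM on NaCl and 620 FPKM on MS.

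Of the 8 ABA receptor genes (PYR/PYL proteins, which bind ABA and block the phosphatases that hold the pathway off), 5 fell and 1 rose, with a median of -0.39. PYL6 fell to 4.84 FPKM on NaCl, against 38.8 FPKM on MS, and PYL4, the strongest of them on MS, had 72.9 FPKM on NaCl and 107 FPKM on MS. PYL7 rose, with 3.96 FPKM on NaCl and 2.48 FPKM on MS, at a locus it shares with another gene. Among protein phosphatases 2C, the wider family that holds the targets of these receptors, 9 of 52 rose and 1 fell. Together that is 19.2%, near the 22.1% of all genes. Of these phosphatases 17.3% rose, against 11.4% of all genes, and 1.92% fell, against 10.8%. Their median was 0.06, and by the normal-deviate reading of the statistic 2 rose and none fell. The heat shock proteins, chaperones of misfolded proteins, rose in 12 of 53 and fell in 1, together 24.5%, also near the share of all genes. Rises made up 22.6%, against 11.4% of all genes, but the median was 0.07, and by the normal-deviate reading of the statistic 5 rose. HSP70 (AT3G12580) had 47.8 FPKM on NaCl and 28.6 FPKM on MS.

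The promoters of LEA genes are known for a motif bound by ABA-responsive bZIP factors. Bases before the start of 2 LEA genes that rose are shown because they hold that core, ACGTGNC on either strand, in capitals. They are the 250 bases before the RefSeq start in TAIR10.1, 5′ to 3′ on the gene's strand: chr1:172949-173198 (minus strand) for LEA14 and chr5:2090431-2090680 (minus strand) for LEA4-5.
LEA14: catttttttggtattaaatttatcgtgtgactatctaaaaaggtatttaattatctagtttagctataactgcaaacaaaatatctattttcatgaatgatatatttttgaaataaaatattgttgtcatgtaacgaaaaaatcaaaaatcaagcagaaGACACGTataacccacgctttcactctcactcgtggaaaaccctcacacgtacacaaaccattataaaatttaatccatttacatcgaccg
LEA4-5: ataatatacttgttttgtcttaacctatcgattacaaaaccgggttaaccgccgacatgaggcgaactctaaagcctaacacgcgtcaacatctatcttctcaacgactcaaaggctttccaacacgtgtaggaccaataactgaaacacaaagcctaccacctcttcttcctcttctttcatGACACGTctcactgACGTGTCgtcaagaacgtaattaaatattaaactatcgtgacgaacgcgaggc
LEA14 had 191 FPKM on NaCl and 144 FPKM on MS, and LEA4-5 had 17.2 FPKM on NaCl and 6.35 FPKM on MS. The core was found in 6 of the 26 LEA promoters (23.1%) and in 9.48% of the 18958 promoters searched. The core CCGAC, bound by DREB factors of the drought and cold response, was in 9 of the 26 (34.6%) and in 13.1% of all. Over the 2163 promoters of genes that rose, 9.11% held ACGTGNC, and over the 2047 of genes that fell, 10.2% did.

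Aquaporins are channels that let water cross membranes. Of 25 aquaporin genes 14 fell (56%, against 10.8% of all genes) and 4 rose, and their summed level was 9407 FPKM on NaCl and 12301 FPKM on MS. By the normal-deviate reading of the statistic 6 fell and 1 rose, and GAMMA-TIP and PIP2A were not among the 6. Both were strong. GAMMA-TIP, a channel of the vacuolar membrane, had 2062 FPKM on NaCl and 2626 FPKM on MS, and PIP2A, a channel of the plasma membrane, had 1320 FPKM on NaCl and 1650 FPKM on MS. The plasma membrane gene PIP2;4 fell furthest in ratio, with 117 FPKM on NaCl and 258 FPKM on MS. The 4 that rose were scarce: PIP2E had 27.4 FPKM on NaCl and 13.9 FPKM on MS, NIP3;1 had 18.1 FPKM on NaCl and 12.7 FPKM on MS, and NIP1;2 and PIP2;5 were lower still. PIP1B, a strong plasma membrane channel, was not called, with 1031 FPKM on NaCl and 938 FPKM on MS.

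Transporters of nutrient ions changed member by member. The families are small, and over all genes 11.4% rose and 10.8% fell. Of 10 sulfate transporter genes 5 rose and none fell, with a summed level of 474 FPKM on NaCl and 219 FPKM on MS. Most of that sum was SULTR1;2, the main uptake transporter of roots, with 394 FPKM on NaCl and 169 FPKM on MS. The uptake transporter SULTR1;1 had 8.01 FPKM on NaCl and 2.39 FPKM on MS, and the members SULTR3;4 and SULTR3;5 rose at similar levels, with 13.5 and 14.4 FPKM on NaCl and 4.55 and 4.72 FPKM on MS. Among 14 nitrate and peptide transporters 5 rose (35.7%) and 2 fell (14.3%). NRT2:1, the high-affinity nitrate importer, had 86.4 FPKM on NaCl and 3.62 FPKM on MS, whereas NRT1.5, which loads nitrate into xylem, had 106 FPKM on NaCl and 193 FPKM on MS. NRT1.8, which takes nitrate back out of xylem, had 29.5 FPKM on NaCl and 0.947 FPKM on MS, at a locus shared with another gene. The loading gene and the retrieval gene thus moved in opposite directions. The phosphate importer PHT1;1 had 620 FPKM on NaCl and 349 FPKM on MS. Of 13 phosphate transporter genes 4 rose (30.8%) and 2 fell (15.4%).

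The 14 potassium channels and transporters rose in 3 and fell in 1, together 28.6%, against 22.1% of all genes. Among those that rose was GORK, the outward potassium channel, with 7.42 FPKM on NaCl and 4.13 FPKM on MS. Of 19 cation exchangers 6 rose and 2 fell. CAX3, a vacuolar calcium exchanger, had 18.8 FPKM on NaCl and 6.19 FPKM on MS, and CHX17 had 1.38 FPKM on NaCl and 7.51 FPKM on MS. The vacuolar sodium exchanger NHX1 was not called, with 85.8 FPKM on NaCl and 76.1 FPKM on MS. Amino acid carriers rose in 13 of 43 and fell in 7: LHT1, an uptake carrier, had 71.5 FPKM on NaCl and 19.0 FPKM on MS. Of 38 UMAMIT-type transporters 12 rose and 4 fell, with SIAR1 at 369 FPKM on NaCl and 159 FPKM on MS and UMAMIT17 at 2.08 FPKM on NaCl and 28.1 FPKM on MS. The organic cation transporters fell in 3 of 6, and none rose.

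Expansins loosen the cell wall so that cells can lengthen. Of 15 alpha-expansin genes 13 rose and 1 fell (median 0.70), and their summed level was 1444 FPKM on NaCl and 842 FPKM on MS. EXPA17, known from lateral root tissue, had 211 FPKM on NaCl and 59.9 FPKM on MS, and EXPA1 had 65.3 FPKM on NaCl and 19.4 FPKM on MS. The strongest, EXPA9, had 279 FPKM on NaCl and 195 FPKM on MS. The root hair expansin EXPA7 had 158 FPKM on NaCl and 110 FPKM on MS, while the root hair regulators RHD6 and RSL4 were not called, with 31.7 and 21.7 FPKM on NaCl and 28.9 and 19.1 FPKM on MS. EXPA6 was the 1 that fell, with 9.03 FPKM on NaCl and 11.7 FPKM on MS. Of the 4 expansin-like genes, EXLA3 rose and EXLA2 fell. In line 6-6, whose samples are separate from the WT samples and whose table was scaled separately, 14 of the 15 alpha-expansin genes rose and none fell, where 24.4% of 19118 genes were called (13.8% rose and 10.5% fell).

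**Figure D3:**
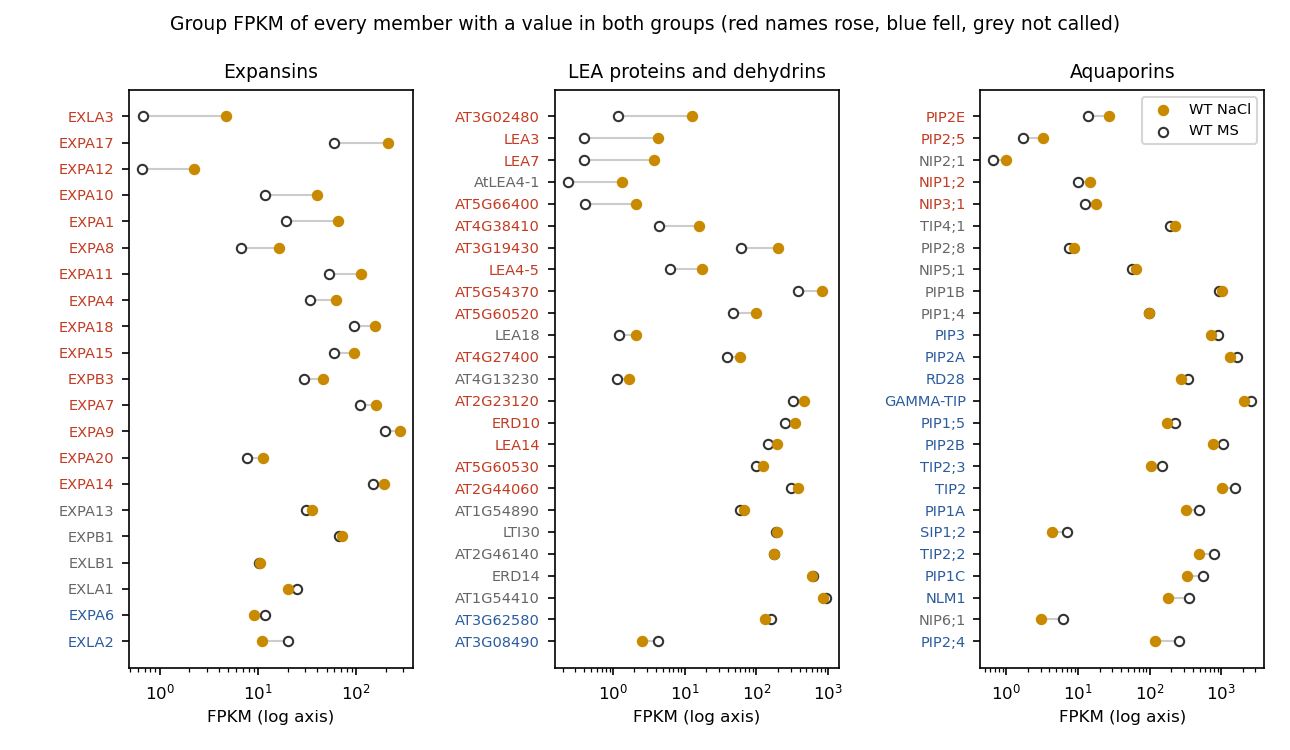
Group FPKM on a log axis of expansin, LEA and aquaporin genes (filled points WT NaCl, open points WT MS), each panel ordered from the highest to the lowest log2 fold change, with names coloured by call. AT3G53770, listed at 0 on MS, is not drawn. Filled points lie to the right of open ones for most expansins and LEA genes. They lie to the left for abundant aquaporins such as GAMMA-TIP, with 2062 FPKM on NaCl, but not for PIP1B, with 1031 FPKM on NaCl.

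Other wall families were mixed, where 11.4% of all genes rose and 10.8% fell. Xyloglucan endotransglucosylase genes, which cut and rejoin hemicellulose, rose in 8 of 24 and fell in 7, with XTH19 at 301 FPKM on NaCl and 206 FPKM on MS and XTH16 at 29.0 FPKM on NaCl and 91.9 FPKM on MS. Arabinogalactan and fasciclin-like proteins, sugar-coated proteins of the cell surface, fell in 15 of 48 and rose in 5. FLA9 had 356 FPKM on NaCl and 720 FPKM on MS. The family sum was 13760 FPKM on NaCl and 15721 FPKM on MS, and the median log2 fold change was -0.14. The 20 genes with cellulose synthase in their description include cellulose synthase-like genes, so they are not all cellulose synthases. None of the 20 rose and 6 fell, and by the normal-deviate reading of the statistic 2 fell. The cellulose synthase-like gene CSLA07 was among the 6, with 6.42 FPKM on NaCl and 9.81 FPKM on MS. CEV1, a catalytic subunit for primary walls, was not called, with 190 FPKM on NaCl and 185 FPKM on MS. Pectin lyases and polygalacturonases rose in 16 of 53 and fell in 7.

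Genes of lipid and barrier chemistry showed strong moves in both directions. Lipid transfer proteins fell in 17 of 49 and rose in 11. Strong members were among those that fell, such as AT4G12545 with 498 FPKM on NaCl and 919 FPKM on MS. AT2G18370 had 312 FPKM on NaCl and 24.9 FPKM on MS, AT2G37870 had 181 FPKM on NaCl and 16.0 FPKM on MS, and EARLI1, a gene known from cold and long days, had 279 FPKM on NaCl and 43.3 FPKM on MS. GDSL lipases fell in 15 of 38 and rose in 4, one of them CDEF1, known as a cutinase, with 55.1 FPKM on NaCl and 19.9 FPKM on MS. Suberin is the waxy polymer of root barriers, and no list of its genes was tested. CYP86A1, a fatty acid hydroxylase known from suberin synthesis, had 146 FPKM on NaCl and 43.7 FPKM on MS, and FACT, a fatty alcohol caffeoyl transferase, had 37.3 FPKM on NaCl and 1.80 FPKM on MS. None of the 9 very-long-chain ketoacyl-CoA synthases, which lengthen the fatty acids of waxes and suberin, rose and 2 fell. That is 22.2% called, near the 22.1% of all genes. KCS20 was among those that fell, with 67.8 FPKM on NaCl and 85.2 FPKM on MS. Of the Casparian strip proteins, CASP1 had 259 FPKM on NaCl and 340 FPKM on MS and fell, and CASP4 had 58.7 FPKM on NaCl and 44.4 FPKM on MS and rose.

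Redox and detoxification families held members that rose and members that fell, where 11.4% of all genes rose and 10.8% fell. Of 58 genes described as peroxidases 25 rose and 15 fell, and this count includes DOX1, an alpha-dioxygenase that shares the description. The steep rises included AT4G36430 with 168 FPKM on NaCl and 5.80 FPKM on MS. Strong members fell, such as AT2G37130 with 437 FPKM on NaCl and 1000 FPKM on MS, and AT5G64100 with 186 FPKM on NaCl and 515 FPKM on MS. The summed level was 8112 FPKM on NaCl and 9263 FPKM on MS, although the median log2 fold change was 0.23, so the sum and the median had opposite signs. Glutathione S-transferases, which couple toxic compounds to glutathione, fell in 18 of 50 and rose in 9. GSTF6 rose, with 183 FPKM on NaCl and 14.7 FPKM on MS, and GSTU19, the strongest of the family on MS, fell, with 1450 FPKM on NaCl and 2190 FPKM on MS. Among 142 cytochrome P450 genes 40 rose and 33 fell. MSRB6, which repairs oxidised methionine, had 24.2 FPKM on NaCl and 108 FPKM on MS, and 5 of 13 genes of that family fell. Of the 10 catalase and superoxide dismutase genes 2 rose and 1 fell.

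Beta-glucosidases of the BGLU series, named as such in the table, rose in 11 of 17 and fell in 1. For this and the families below, the shares over all genes were 11.4% rising and 10.8% falling. BGLU11 had 47.5 FPKM on NaCl and 23.8 FPKM on MS. PYK10, which belongs to the same enzyme class but carries another description, fell, and its level alone exceeded the family sum of 653 FPKM on NaCl and 483 FPKM on MS. MLP-like proteins (relatives of the major latex protein) fell in 4 of 6 and rose in 1, with MLP34 at 217 FPKM on NaCl and 416 FPKM on MS. Jacalin and mannose-binding lectins, sugar-binding proteins that include partners of PYK10, rose in 6 of 25 and fell in 6, so the family had no common direction. JAL34 fell, with 553 FPKM on NaCl and 776 FPKM on MS. JAL22 and JR1 rose, with 52.4 and 50.6 FPKM on NaCl and 33.8 and 40.1 FPKM on MS. Defensins fell in 4 of 11 and rose in 1. The defensin-like gene AT4G22212 had 137 FPKM on NaCl and 513 FPKM on MS.

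Hormone genes other than those of ABA were called in both directions. Cytokinin response and breakdown genes fell in 6 of 18 and rose in 1, among them the response regulator ARR4, with 57.5 FPKM on NaCl and 95.0 FPKM on MS, and the cytokinin oxidase CKX4, with 5.86 FPKM on NaCl and 12.1 FPKM on MS. Of 10 gibberellin genes 5 rose and 2 fell. The synthesis enzyme GA20OX2 had 9.12 FPKM on NaCl and 4.16 FPKM on MS, and GA3OX1 had 40.6 FPKM on NaCl and 26.7 FPKM on MS. The gibberellin-regulated peptides GASA4 and GASA1 moved apart: GASA4 had 1731 FPKM on NaCl and 1205 FPKM on MS, and GASA1 had 688 FPKM on NaCl and 1532 FPKM on MS. Jasmonate genes fell in 5 of 16 (31.2%, against 10.8% of all genes) and rose in 1. By the normal-deviate reading of the statistic only 1 of the 16 fell and none rose. OPR1, an oxophytodienoate reductase outside that list, had 284 FPKM on NaCl and 790 FPKM on MS. In line 6-6, 7 of 15 of these jasmonate genes rose and 1 fell, where 13.8% of all genes rose and 10.5% fell. The difference between the lines could not be tested on group values.

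Among transcription factor families WRKY factors rose in 20 of 53 and fell in 7. The strongest, WRKY65, was not called, with 179 FPKM on NaCl and 153 FPKM on MS. The steepest rise was that of a weak gene: WRKY71 had 4.70 FPKM on NaCl and 0.144 FPKM on MS. NAC factors rose in 14 of 52 and fell in 7. Among factors that reached 10 FPKM, MYB67 had 15 FPKM on NaCl and 0.340 FPKM on MS, and MYB93, a factor known from the endodermis over lateral roots, had 34.2 FPKM on NaCl and 8.55 FPKM on MS. The bHLH gene AT1G62975 fell to 15 FPKM on NaCl, against 81.6 FPKM on MS. None of 38 C2H2 zinc finger genes rose and 8 fell (21.1%), where 10.8% of all genes fell and 22.1% were called. By the normal-deviate reading of the statistic 3 fell. RHL41 (ZAT12, known for stress induction in other settings) had 15.3 FPKM on NaCl and 28.9 FPKM on MS. CBL-interacting kinases, which pass calcium signals to ion transporters, rose in 9 of 19 and fell in 4, with CIPK7 at 106 FPKM on NaCl and 58.9 FPKM on MS. The calmodulin-like gene TCH3, known for its response to touch, had 27.4 FPKM on NaCl and 3.47 FPKM on MS.

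Ribosomal protein genes had small changes in one direction. Of 321 genes with that description 80 rose (24.9%, median 0.18) and none fell. Of the 157 among them that RefSeq names as cytosolic, 55 rose (35%, against 11.4% of all genes) and none fell, and 153 of 157 had a value above 0 on the log2 scale. The median was 0.23, and the middle of the distribution was narrow, with the 10th percentile at 0.08 and the 90th at 0.37. Because these genes are among the strongest in the tip, the small ratios amounted to much transcript: 84715 FPKM in all on NaCl (9.26% of the FPKM of all genes described) and 71573 FPKM on MS (7.89%). The 55 genes that rose made up 15.5% of the FPKM gained by all genes that rose. AT3G60245, of a zinc-binding ribosomal protein family, had 2496 FPKM on NaCl and 1814 FPKM on MS, and AT4G18100 (ribosomal protein L32e) had 1326 FPKM on NaCl and 1017 FPKM on MS.

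Of the 157 genes, 74 had a mean of at least 500 FPKM, and 35 of those rose. For comparison, 230 genes outside the 157 with such a mean rose in 32 and fell in 51, with a median of 0.01. The 230 still include ribosomal genes that RefSeq does not name as cytosolic, such as P40. By the normal-deviate reading of the statistic, 13 of the 157 rose and none fell. The 107 ribosomal genes for which RefSeq names no location had a median of 0.10, and 18 of them rose (16.8%). That class also holds genes of the cytosolic ribosome, such as P40, with 837 FPKM on NaCl and 631 FPKM on MS. The class that RefSeq places in plastids or mitochondria only had a median of 0.09, with 7 of 47 rising. It is not clean, as 1 of the 7 is LOS1, known as a cytosolic elongation factor, with 607 FPKM on NaCl and 458 FPKM on MS. Of the organelle genes, the 10 that encode ribosomal proteins had a median of 0.00 and no call. They were weak (median 3.09 FPKM on NaCl and 3.08 FPKM on MS) and ranged from -1.17 to 2.73 on the log2 scale. The lack of a call therefore does not show that they were unchanged. Among translation factors 13 of 69 rose (18.8%) and none fell, where 11.4% of all genes rose and 22.1% were called. The elongation factor gene AT5G60390 had 1763 FPKM on NaCl and 1238 FPKM on MS, and ELF5A-3 had 466 FPKM on NaCl and 213 FPKM on MS.

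In line 6-6 the values of these genes lay nearer to 0. Of 156 with a value there 6 rose and 7 fell, with a median of 0.04 and 99 above 0, and their sum was 72273 FPKM on NaCl (8.41%) and 71133 FPKM on MS (8.18%). The difference between the lines was not tested, since each group has 1 value.

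**Figure D4:**
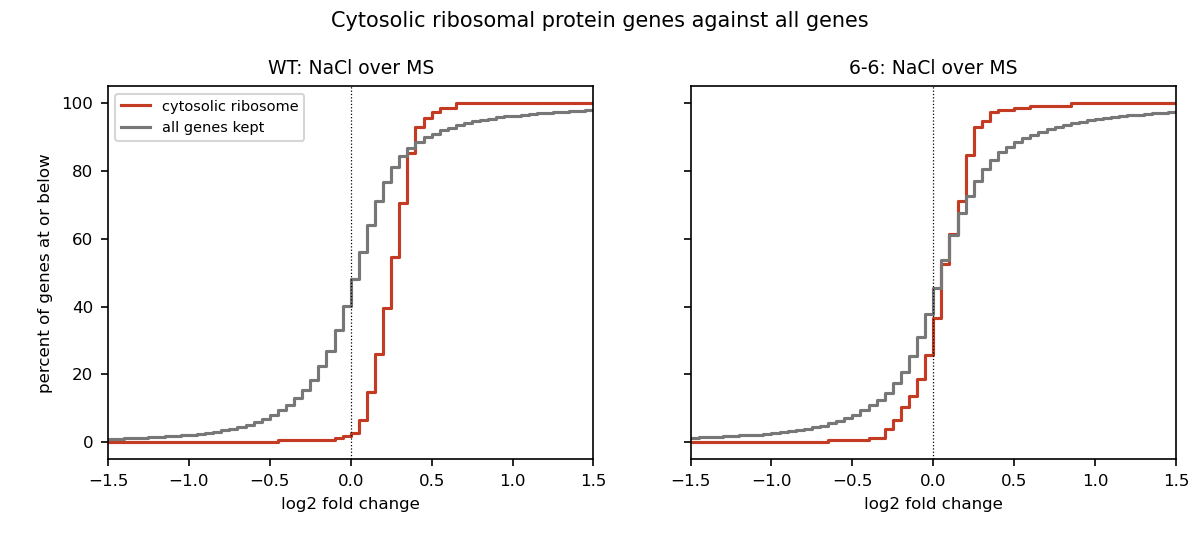
Cumulative share of genes (percent) against log2 fold change of NaCl over MS in WT (left) and 6-6 (right), for cytosolic ribosomal protein genes (red) and all genes described (grey), in steps of 0.05; genes beyond 1.5 on either side are not drawn. In WT the red curve is shifted to the right of 0 (median 0.23), and in 6-6 it lies close to 0 (median 0.04).

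Plant ribosomal protein promoters are known for site II elements, bound by TCP factors, and telo-boxes. Promoters of 2 ribosomal genes that rose are shown because they hold both the site II core GGCCCA and the telo-box core AACCCTA on either strand, in capitals: chr5:4936430-4936679 (minus strand) for AT5G15200 and chr4:347294-347543 (minus strand) for AT4G00810.
AT5G15200: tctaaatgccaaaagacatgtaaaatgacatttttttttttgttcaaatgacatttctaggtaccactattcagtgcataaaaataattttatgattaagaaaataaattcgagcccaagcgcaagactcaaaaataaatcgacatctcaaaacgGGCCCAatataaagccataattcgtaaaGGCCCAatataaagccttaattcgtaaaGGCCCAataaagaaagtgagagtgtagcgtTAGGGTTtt
AT4G00810: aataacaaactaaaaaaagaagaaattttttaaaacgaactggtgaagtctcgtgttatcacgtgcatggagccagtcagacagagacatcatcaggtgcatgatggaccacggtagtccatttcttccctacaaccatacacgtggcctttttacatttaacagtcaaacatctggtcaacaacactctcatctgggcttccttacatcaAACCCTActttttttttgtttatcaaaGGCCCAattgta
AT5G15200, for ribosomal protein S4, had 938 FPKM on NaCl and 751 FPKM on MS, and AT4G00810, for an acidic ribosomal protein, had 600 FPKM on NaCl and 496 FPKM on MS. In AT5G15200 the 3 site II cores begin 95, 67 and 39 bases before the start, and the telo-box begins 9 bases before it. The site II core was in 90 of the 157 promoters (57.3%) and in 16.7% of all searched, and the telo-box core in 38 (24.2%) and in 5.17%. Both cores together were in 26 (16.6%) and in 1.39%. The site II core was in 34 of the 55 ribosomal promoters of genes that rose (61.8%) and in 56 of the 102 of genes not called (54.9%). Among all genes that rose it was in 11.5%, and among genes that fell in 7.67%.

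**Figure D5:**
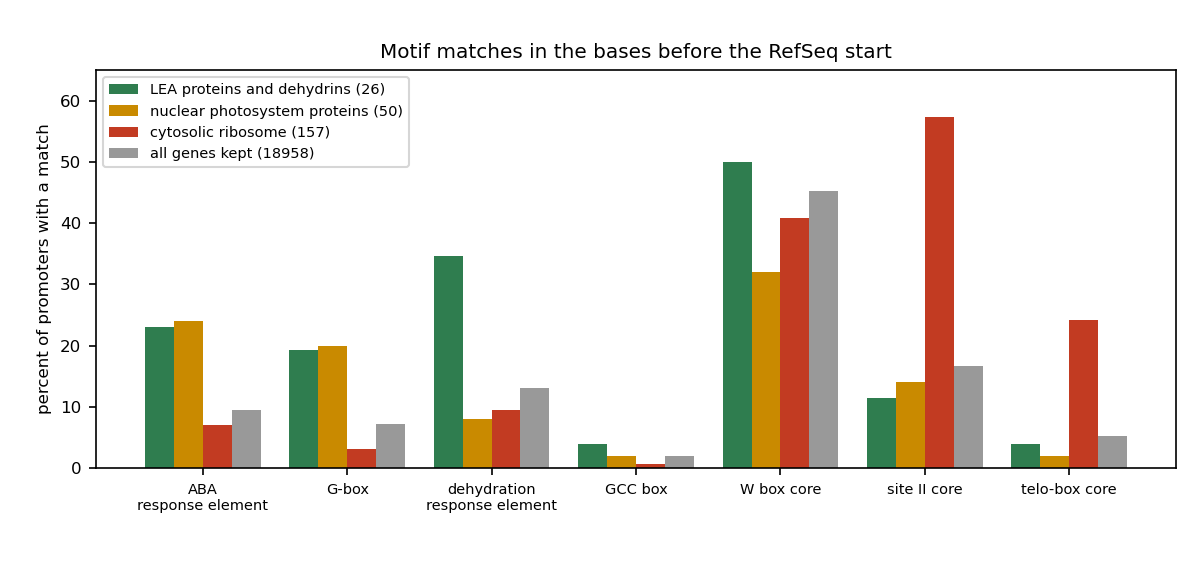
Percent of promoters (250 bases before the RefSeq start) with a match to each of 7 motifs, for LEA genes, nuclear photosystem genes, cytosolic ribosomal genes and all genes described, with the number of promoters in the legend. The site II bar of the ribosomal genes (57.3%) stands far above that of all genes (16.7%).

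Families of cell division and the cytoskeleton were called at shares on both sides of the 22.1% of all genes. None of the 15 tubulin genes, which build microtubules, and none of the 34 proteasome genes was called in the authors' deposited table. Of 43 histone genes 4 fell (9.30%, against 10.8% of all genes) and none rose. Of 63 cyclins and cyclin-dependent kinases 10 fell and 5 rose, together 23.8%, close to the share of all genes. Kinesins, motors that walk on microtubules, fell in 8 of 37 and rose in 4, together 32.4%. The mitotic kinase gene CDKB1;1 had 40 FPKM on NaCl and 50.5 FPKM on MS. All 10 minichromosome maintenance genes, which license DNA replication, had values below 0 (median -0.13), but only MCM5 was called, with 11.4 FPKM on NaCl and 14.3 FPKM on MS. Of 47 glycolysis genes 11 rose (23.4%, against 11.4% of all genes) and 1 fell, at a summed level of 12430 FPKM on NaCl and 10027 FPKM on MS.

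Of 50 nuclear genes for light-harvesting and photosystem proteins 29 rose and 2 fell (median 0.62), at levels that are low for such genes: their sum was 1345 FPKM on NaCl and 958 FPKM on MS. LHCB1.3 (CAB1) had 134 FPKM on NaCl and 36.8 FPKM on MS, and LHCB5 had 39.0 FPKM on NaCl and 18.4 FPKM on MS. Near-identical copies of LHCB and RBCS genes can share reads, so each single value is uncertain. PSBR, the strongest on MS, fell, with 136 FPKM on NaCl and 177 FPKM on MS. Of 9 leaf marker genes 5 rose and 1 fell, and GLK1, a regulator of chloroplast genes, was under 1 FPKM in both groups, with 0.286 FPKM on NaCl and 0.184 FPKM on MS. The part of green tissue in these values was not tested. The plastid genome itself gave no call among 44 genes, whose sum was 111 FPKM in each group.

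The promoter of LHCB4.1, an antenna protein gene with 25.3 FPKM on NaCl and 15.3 FPKM on MS, is shown for its G-box (CACGTG, in capitals), a site bound by bZIP and bHLH factors, at chr5:208616-208865 (plus strand).
LHCB4.1: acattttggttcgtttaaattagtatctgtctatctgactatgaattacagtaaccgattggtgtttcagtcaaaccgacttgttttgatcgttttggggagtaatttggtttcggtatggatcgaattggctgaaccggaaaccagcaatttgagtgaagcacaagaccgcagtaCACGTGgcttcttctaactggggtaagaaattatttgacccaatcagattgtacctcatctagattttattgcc
The G-box was in 10 of the 50 photosystem promoters (20%) and in 7.27% of all searched. It overlaps the ABA response core in 851 promoters (4.49%), so those counts are not separate.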

How the data were processed

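Each gene's FPKM per group, the test statistic (a score), a p-value and a q-value were deposited by the authors, in 4 tables with the column layout of Cuffdiff per the file headers. The submitters' processing notes name HISAT2, HTSeq, edgeR and TAIR10, without roles or versions. The q-values equalled a Benjamini-Hochberg adjustment over tested genes (largest deviation 5.21e-07), and the smallest p-value is 5.00e-05.

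Log2 fold changes are WT NaCl over WT MS group FPKM with no pseudocount (Python 3.11.15, pandas 2.3.3). Families were matched in the description text, and some terms were corrected after the descriptions were seen. The families, lists and markers were chosen with earlier results of these data known. Of the gene codes 97.8% had an entry in RefSeq. The genes described include 3202 that share a locus with another gene, whose values are uncertain. Genes were named by a rule: the 15 largest rises and falls in FPKM, up to 3 called members per direction and the strongest member of each family, called factors, markers and genes next to the 1 FPKM limit. Other members are named to show the range of a family, after their values were seen. Positions of genes are TAIR10 positions from the files, with 1 added to the start. Promoters are TAIR10.1 sequence before RefSeq starts, which equal the files' start and end for 4.55% of genes alone in their locus, and 31.5% of windows overlap another annotated gene. Adjustment and family summaries were tested on simulated data. Leaving out replicates would need values per sample.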

Additional observations from a re-analysis of the deposited data

How the results depend on the processing

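Requiring a log2 fold change of at least 1 left 567 rises and 342 falls, and reading the authors' statistic as a normal deviate left 922 rises and 735 falls, against 2171 and 2054. With a q-value below 0.01, no limit on FPKM, a limit of 5 FPKM, or without genes that share a locus the counts stayed within 1.5 times. Of 595 family medians under alternatives 559 moved by less than 0.1, 32 moved further and 4 medians of at least 0.1 in size changed sign. With a limit of 5 FPKM the medians of phosphate transporters (-0.02), ABC transporters (-0.01) and chitinases (0.13) changed sign, and without genes that share a locus that of expansin-like proteins was 0.00. The same limit took sulfate transporters to 1.39, LEA genes to 0.43 and expansins to 0.52. No called gene among those named changed sign under 1620 values, but these alternatives could hardly have changed a sign. Adding 1 to each FPKM keeps the sign, and centring shifts every gene by the median of 0.01. The tables that hold the other line rest on the same WT samples, and their WT values moved a named gene by at most 0.014 on the log2 scale after centring. These values therefore do not show how firm the single genes are. No paired analysis was possible because each group has a single deposited value, so no sample could be left out either. Depth is unknown, which limits every statement on weak genes.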
